A study of Mus musculus with 6 samples.

Results

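Amino acid transporters were examined in an immortalized mouse podocyte line in which the lysosomal transcription factor Tfeb was knocked down. The genes were chosen by name and type: every protein-coding gene whose symbol begins with Slc1a, Slc6a, Slc7a, Slc36a, Slc38a or Slc43a and a number, leaving out Slc7a11 and Slc38a9. This gave 60 of the 53715 genes in the table, 7 of Slc1, 21 of Slc6, 15 of Slc7, 4 of Slc36, 10 of Slc38 and 3 of Slc43. Of these, 21 averaged at least 1 FPKM across all 6 libraries and are called expressed here. FPKM is a level corrected for the length of the gene and for how deeply each library was sequenced. A further 13 had a mean of 0.1 to 1 FPKM and 26 lay under 0.1 FPKM. One of the 21, Slc7a6os, met the naming rule although it is not a transporter. It is a separate gene on the opposite strand next to Slc7a6, 2010 bases away on chromosome 8. Without it there were 59 transporters, 20 of them at 1 FPKM or more.

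The study compared 3 libraries from cells given a scrambled siRNA, whose genotype label is WT, with 3 libraries from cells given an siRNA against Tfeb, whose genotype label is TFEB knockdown. The cells were a conditionally immortalized line, which divided in RPMI-1640 medium with 10% serum and interferon gamma at 33 °C and was moved to 37 °C with 5% serum on type I collagen for 10 to 14 days to differentiate. Both groups are the same cells and differ by the siRNA sequence. The time between transfection and RNA isolation is not given in the sources used here.

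Podocytes cover the outer face of the glomerular capillaries in the kidney. TFEB switches on genes of lysosomes and of autophagy, and it is itself held in the cytoplasm by the kinase mTORC1 when amino acids are plentiful. Plasma membrane transporters bring amino acids into the cell: Slc1 members carry acidic or small neutral amino acids, Slc6 members carry neutral amino acids, taurine, creatine or transmitters with sodium, and Slc38 members carry glutamine and other small neutral amino acids. Most Slc7 light chains exchange 1 amino acid for another and reach the surface bound to a heavy subunit, Slc3a2 or Slc3a1. Some Slc36 and Slc38 members sit on lysosomes, where they let amino acids out into the cytoplasm.

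Promoter sequences are given first for the 5 expressed genes whose start region holds a motif tied to the study's question. The motif CACGTG is the core of the element that TFEB binds, and TGATGNAA is an element that ATF4 and its partners bind when amino acids run short. Windows of 250 bases before to 50 bases after the gene start were taken from RefSeq's GRCm38.p6 annotation, which held 15 of the 21 expressed genes and 42 of all 60. Not in that table were Slc1a5, Slc38a1, Slc6a6, Slc6a8, Slc6a18 and Slc7a5. Both strands were searched, and the 2 motifs do not overlap in these windows. A gene can have several windows: the 15 expressed genes, 1 of them Slc7a6os, had 24 windows, 5 of them at Slc7a7. By window, CACGTG stood in 7.15% of all 32851, in 10.1% of the 10836 of tested genes and in 3 of the 24. By gene, 12.1% of the 8495 tested genes with a window and 3 of the 15 held it in at least 1 window. By window, TGATGNAA stood in 3.97% of all, in 2.11% of those of tested genes and in 3 of the 24. By gene, 2.54% of the tested genes and 2 of the 15 held it. CACGTG began 32 bases before the start of Slc1a6 (chr10:78780246-78780545, plus strand), 34 bases before that of Slc38a7 (chr8:95853442-95853741, minus strand), and 31 and 3 bases before that of Slc36a1 (chr11:55204090-55204389, plus strand). The TGATGNAA element lay 4 bases before the start of Slc1a4 (chr11:20332664-20332963, minus strand), and 141 and 1 bases before that of Slc7a7 (chr14:54417895-54418194, minus strand). A second, overlapping window of Slc7a7 (chr14:54417653-54417952) also holds a match, and is not printed. The sequences read 5′ to 3′ along the gene, with each motif in capitals as it reads on the gene's strand.
Slc1a6: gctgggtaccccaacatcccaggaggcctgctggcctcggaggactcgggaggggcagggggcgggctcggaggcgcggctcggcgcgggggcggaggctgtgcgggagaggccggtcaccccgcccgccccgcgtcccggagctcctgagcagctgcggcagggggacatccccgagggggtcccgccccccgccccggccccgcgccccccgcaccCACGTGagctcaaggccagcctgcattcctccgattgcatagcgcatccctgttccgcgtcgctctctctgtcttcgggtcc
Slc36a1: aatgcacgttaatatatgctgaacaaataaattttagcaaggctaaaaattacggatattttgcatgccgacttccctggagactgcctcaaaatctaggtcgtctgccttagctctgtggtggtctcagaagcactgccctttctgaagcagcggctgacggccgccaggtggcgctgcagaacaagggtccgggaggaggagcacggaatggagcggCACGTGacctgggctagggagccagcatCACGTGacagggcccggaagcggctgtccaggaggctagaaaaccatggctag
Slc38a7: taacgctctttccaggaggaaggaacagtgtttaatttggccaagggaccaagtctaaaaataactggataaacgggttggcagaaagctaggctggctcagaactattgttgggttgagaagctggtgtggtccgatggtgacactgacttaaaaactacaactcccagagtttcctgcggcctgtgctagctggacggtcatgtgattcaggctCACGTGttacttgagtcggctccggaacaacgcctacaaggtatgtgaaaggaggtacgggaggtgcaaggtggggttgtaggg
Slc1a4: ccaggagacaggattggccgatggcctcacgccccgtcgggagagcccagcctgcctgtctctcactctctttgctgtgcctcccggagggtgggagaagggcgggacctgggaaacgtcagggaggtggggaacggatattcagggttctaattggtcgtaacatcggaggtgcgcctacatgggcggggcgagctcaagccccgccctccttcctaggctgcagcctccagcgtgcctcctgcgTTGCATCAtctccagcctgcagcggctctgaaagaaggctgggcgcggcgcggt
Slc7a7: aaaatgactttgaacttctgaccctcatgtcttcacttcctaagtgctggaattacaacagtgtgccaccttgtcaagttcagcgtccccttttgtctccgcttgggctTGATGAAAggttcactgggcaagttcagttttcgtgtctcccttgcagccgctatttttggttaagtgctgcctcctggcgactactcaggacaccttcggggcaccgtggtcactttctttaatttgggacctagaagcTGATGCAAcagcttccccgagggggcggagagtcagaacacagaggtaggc
Of the 3 genes with CACGTG, Slc1a6 and Slc36a1 were lower after TFEB siRNA and Slc38a7 was higher. Of the 2 genes with TGATGNAA, Slc1a4 was higher and Slc7a7 lower. A match is a description of the letters and not a measured binding site.

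Reads per gene, worked back from the FPKM values, came to between 18062898 and 20610888 per library. The target gene Tfeb had 1.80, 2.05 and 2.27 FPKM in the scrambled libraries and 0.639, 0.714 and 0.822 FPKM after TFEB siRNA, in the order of the replicate numbers, which holds for all values below. Its level after siRNA was 35.5% of the scrambled level (log2 fold change -1.05, limma adjusted p = 0.00148). An exact two-sided permutation test gave p = 0.1, the smallest that 3 against 3 libraries allow. The label podocyte was met in part by its markers: Nphs1 and Wt1, which define the mature cell, had group means of 0.0651 to 0.504 FPKM. Among the other podocyte markers, Podxl was higher and Synpo lower after TFEB siRNA by limma.

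Markers of other kidney cells were measured as well, because several of the transporters below are known from the proximal tubule. The 5 proximal tubule markers summed to 176 to 227 FPKM in scrambled libraries and 181 to 218 after TFEB siRNA, nearly all of it Aqp1 and Lrp2. Lrp2 had means of 52.5 and 46.3 FPKM and Cubn of 1.18 and 0.855. Slc34a1 and Slc5a2 stood at group means of 0.0338 to 0.0940 FPKM. None of the 3 tubule markers tested passed by limma (0 at an unadjusted p below 0.05). Endothelial markers summed to 0.340 to 0.575 FPKM against 0.351 to 0.476, with Emcn at 0. Mesangial markers summed to 33.7 to 35.7 FPKM against 32.1 to 34.8, most of it Pdgfrb. Of the others, Des had means of 1.42 and 0.503 FPKM, Gata3 of 1.21 and 1.30, and Itga8 of 0.0196 and 0.0261. Immune markers summed to 9.14 to 11.1 FPKM against 6.07 to 7.25, nearly all of it Cd68 and Csf1r, with Csf1r lower. Ptprc and Adgre1 were at group means of 0.00497 to 0.0262 FPKM. Neuronal markers summed to 5.48 to 5.91 FPKM against 10.1 to 11.7, nearly all of it Tubb3, which was higher. Rbfox3 had means of 0.0687 and 0.00862 FPKM, Syt1 of 0.0268 and 0.0250, and Snap25 was at 0. The part of such cells in the results below was not tested, and in bulk RNA fewer cells of a type and less RNA per cell cannot be told apart.

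Of the 21 expressed genes, 13 passed the test between the groups, 5 higher and 8 lower after TFEB siRNA, which is 61.9%. Over all 12257 genes tested, 33.3% passed, 16.9% higher and 16.4% lower. A gene passed when its limma adjusted p, by Benjamini-Hochberg over all tested genes on log2(FPKM + 0.5), was below 0.05, and fold changes are on that scale unless given as a ratio of mean FPKM. The median log2 fold change of the 21 genes was -0.15, or -0.17 without Slc7a6os, against 0.02 for all tested genes. The groups did not overlap for 6 genes that were higher and 10 that were lower in every TFEB siRNA library, while 25.3% and 23.5% of all tested genes showed this, 48.7% in either direction. By family, 2 of 3 Slc1 and 3 of 5 Slc38 genes rose, whereas 4 of 5 Slc6, both Slc36, 1 of 5 Slc7 and the third Slc1 gene fell. Among the lower genes, Slc6a19 reached 1 FPKM only through the scrambled libraries, so it supports none of these counts or shares. The count of higher genes rests on narrow margins. On TPM, each library's FPKM rescaled to a common sum, 2 genes were higher and 8 lower, and when any single library was left out 2 or 3 were higher and 4 to 8 lower.

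**Figure D1:**
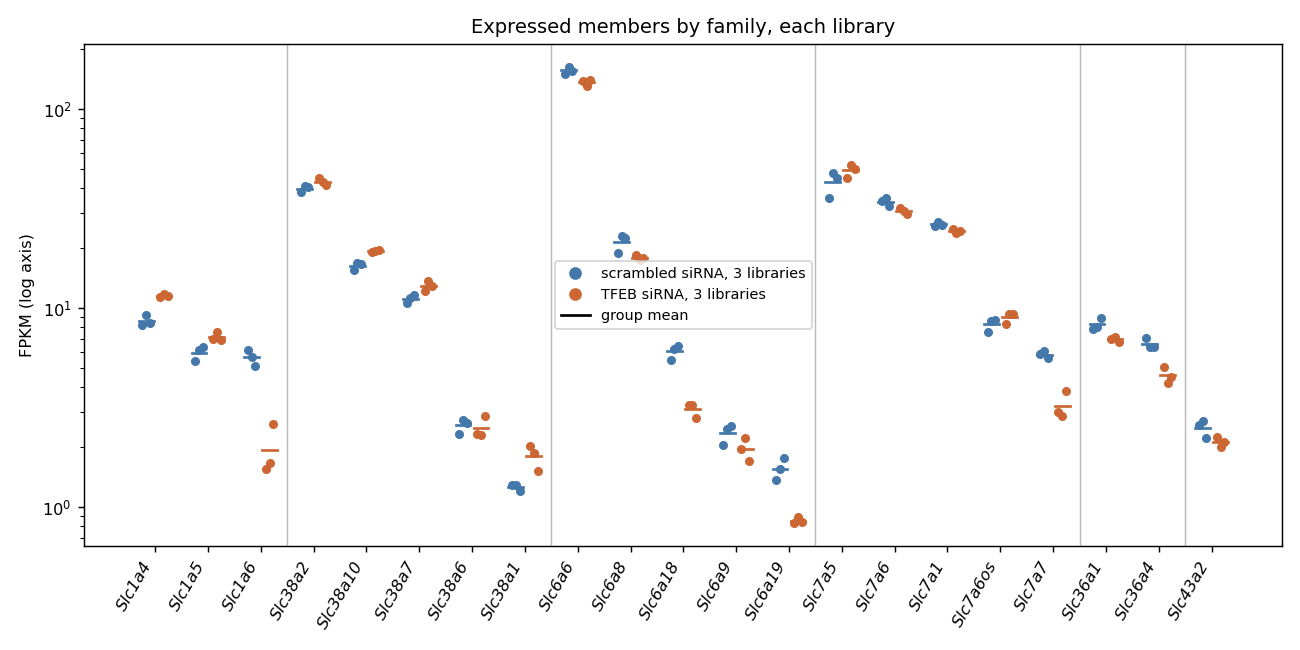
FPKM on a log axis (y) of the 21 expressed genes (x), grouped by family with vertical lines between families; points are the 3 scrambled and 3 TFEB siRNA libraries and bars are group means. Slc6a6 lies highest at 130 to 162 FPKM, and the groups stand apart most for Slc1a6.

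**Figure D2:**
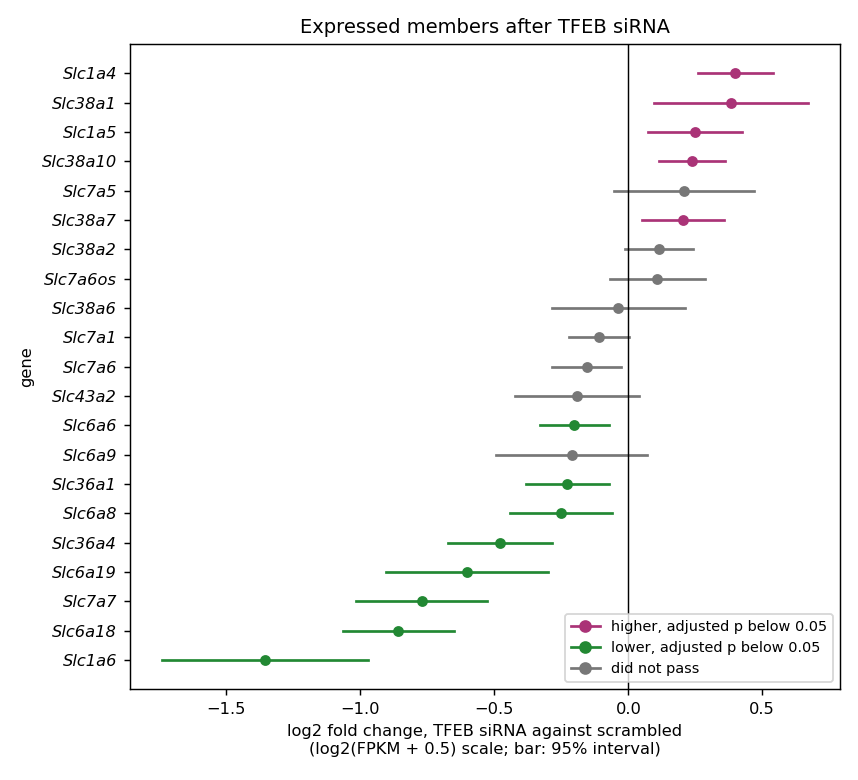
Log2 fold change of the 21 expressed genes (x, on log2(FPKM + 0.5), TFEB siRNA against scrambled), with 95% intervals as bars and colours for genes that passed higher, passed lower or did not pass. Slc1a6 at -1.36 and Slc6a18 at -0.86 lie farthest to the left and Slc1a4 at 0.40 farthest to the right.

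The Slc1 genes at 1 FPKM or more were split in direction. Slc1a6, a high-affinity glutamate and aspartate transporter known from cerebellar Purkinje cells, fell most of all 21 genes. It stood at 6.13, 5.68 and 5.11 FPKM in scrambled libraries and at 1.55, 1.65 and 2.60 FPKM after TFEB siRNA. Every TFEB siRNA library was lower than every scrambled library, and TFEB siRNA replicate 3 was the highest of its group. Its mean went from 5.64 ± 0.512 to 1.93 ± 0.576 FPKM (SD, n = 3), a level 2.92-fold lower (log2 fold change -1.36, SE 0.16, limma adjusted p = 0.00137). This rested on 758 reads against 240. The gene lies at chr10:78780496-78814765 on the plus strand (mm10).

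Slc1a4, an exchanger of alanine, serine, cysteine and threonine, rose. It was measured at 8.23, 9.21 and 8.41 FPKM in scrambled libraries and at 11.3, 11.8 and 11.4 FPKM after TFEB siRNA, with a clear gap between the groups. The means were 8.61 ± 0.523 and 11.5 ± 0.224 FPKM (SD, n = 3), a level 1.34-fold higher (log2 fold change 0.40, SE 0.06, limma adjusted p = 0.00307). Slc1a4 lies at chr11:20302180-20332713 on the minus strand. Slc1a5, the related glutamine carrier, went the same way by less. Its values were 5.39, 6.12 and 6.31 FPKM against 6.99, 7.51 and 6.91 FPKM, without overlap (log2 fold change 0.25, SE 0.07, limma adjusted p = 0.0400). That call was lost when any single library was left out, with adjusted p of 0.0526 to 0.118.

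Among the Slc38 genes, carriers of glutamine and small neutral amino acids, Slc38a10, Slc38a7 and Slc38a1 rose and Slc38a2 and Slc38a6 did not pass. Slc38a10, whose transport role is less well worked out, stood at 15.4, 16.7 and 16.7 FPKM in scrambled libraries and 19.1, 19.2 and 19.6 FPKM after TFEB siRNA. The TFEB siRNA libraries lay close together and above all scrambled ones (log2 fold change 0.24, SE 0.05, limma adjusted p = 0.0130). It lies at chr11:120103960-120151346 on the minus strand and overlaps Gm11769 on the other strand, with which 7.02% of its 50-base stretches are shared.

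Slc38a7, which exports glutamine from lysosomes, was 10.5, 11.2 and 11.6 FPKM in scrambled libraries and 12.1, 13.6 and 12.9 FPKM after TFEB siRNA (log2 fold change 0.20, SE 0.06, limma adjusted p = 0.0480). Slc38a1, a glutamine importer of the plasma membrane, was 1.28, 1.28 and 1.20 FPKM against 2.02, 1.87 and 1.51 FPKM (log2 fold change 0.38, SE 0.12, limma adjusted p = 0.0487). In both genes the groups stood apart by a small gap. The Slc38a7 call held without TFEB siRNA replicate 1 and was lost without each other library (adjusted p 0.0690 to 0.136). The Slc38a1 call held without TFEB siRNA replicate 3 and was lost without each other library (adjusted p 0.0923 to 0.138).

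Slc38a2, a glutamine importer that cells make in larger amounts when amino acids are scarce, was the most abundant Slc38 gene by FPKM. It stood at 38.2, 40.8 and 40.2 FPKM in scrambled libraries and 44.9, 42.7 and 41.5 FPKM after TFEB siRNA. All 3 TFEB siRNA libraries were above all scrambled ones, but the difference did not pass (log2 fold change 0.11, 95% interval -0.01 to 0.24, limma adjusted p = 0.147). Slc38a1 and Slc38a2 are neighbours on chromosome 15, 44478 bases apart on the same strand. Slc38a6 showed no difference that passed, with means of 2.57 ± 0.211 and 2.49 ± 0.310 FPKM (SD, n = 3; log2 fold change -0.04, 95% interval -0.29 to 0.21, limma adjusted p = 0.819). Its level is uncertain because 69.9% of its 50-base stretches occur in other genes as well.

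The Slc6 genes at 1 FPKM or more were lower after TFEB siRNA in 4 of 5 cases. Slc6a18, a carrier of glycine and alanine in the brush border of the proximal tubule, fell most. It was measured at 5.46, 6.18 and 6.43 FPKM in scrambled libraries and 3.26, 3.24 and 2.80 FPKM after TFEB siRNA, a wide gap. The means were 6.03 ± 0.501 and 3.10 ± 0.260 FPKM (SD, n = 3), a level 1.94-fold lower (log2 fold change -0.86, SE 0.09, limma adjusted p = 0.000850). Its neighbour Slc6a19, the main carrier of neutral amino acids in the same brush border, lies 1721 bases away on the same strand of chromosome 13. Slc6a19 stood at 1.36, 1.54 and 1.76 FPKM in scrambled libraries and 0.824, 0.888 and 0.837 FPKM after TFEB siRNA, again without overlap (log2 fold change -0.60, SE 0.13, limma adjusted p = 0.0117; 486 reads against 245). Slc6a19 passed the level for testing only through the scrambled libraries, so a gene at its level after TFEB siRNA had to differ to be tested, and it is no support for the count of 8 lower genes. Without scrambled replicate 3 its adjusted p was 0.0521. Slc6a18 lies at chr13:73661752-73678023 and Slc6a19 at chr13:73679745-73704865, both on the minus strand.

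Slc6a6, the taurine transporter, had the highest level of all 60 genes. It stood at 150, 162 and 155 FPKM in scrambled libraries and 138, 130 and 139 FPKM after TFEB siRNA, a level 1.15-fold lower (log2 fold change -0.20, SE 0.05, limma adjusted p = 0.0284). Slc6a8, the creatine transporter, was 18.8, 23.0 and 22.4 FPKM against 18.4, 17.4 and 17.7 FPKM (log2 fold change -0.25, SE 0.08, limma adjusted p = 0.0499). In Slc6a8 scrambled replicate 1 lay almost level with the TFEB siRNA libraries, and with the replicate number as a block its adjusted p was 0.0525, which did not pass. Both calls held without scrambled replicate 1 and were lost without each other library, with adjusted p of 0.0536 to 0.0920 for Slc6a6 and 0.0813 to 0.148 for Slc6a8. Slc6a9, a glycine transporter, did not pass, with means of 2.34 ± 0.259 and 1.95 ± 0.264 FPKM (SD, n = 3; log2 fold change -0.21, 95% interval -0.49 to 0.07, limma adjusted p = 0.216). Of its 50-base stretches 41.2% are shared with 2 other genes, of which Ccdc24 shares the most. Slc6a9 also overlaps B4galt2 on the opposite strand, which rose from 6.54 ± 0.398 to 8.30 ± 0.726 FPKM (SD, n = 3; limma adjusted p = 0.0207). Whether reads were counted by strand is not given in the sources used here, so its level cannot be separated from that of B4galt2 where they overlap.

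Of the Slc7 genes, exchangers and cationic amino acid carriers, Slc7a7 alone passed. Slc7a7 exports arginine and lysine in exchange for neutral amino acids, in the kidney at the blood side of the tubule cell. It stood at 5.83, 6.04 and 5.58 FPKM in scrambled libraries and 2.99, 2.86 and 3.81 FPKM after TFEB siRNA, with replicate 3 the highest of its group as for Slc1a6. The means were 5.82 ± 0.227 and 3.22 ± 0.514 FPKM (SD, n = 3), a level 1.81-fold lower (log2 fold change -0.77, SE 0.10, limma adjusted p = 0.00205). The gene lies at chr14:54369442-54417780 on the minus strand. It overlaps the end of Oxa1l on the other strand and shares 8.12% of its 50-base stretches with it. Oxa1l had means of 9.53 ± 0.408 and 9.39 ± 0.431 FPKM (SD, n = 3), which did not differ past the threshold (limma adjusted p = 0.822).

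The 3 abundant Slc7 carriers did not pass. Slc7a5, the exchanger that takes up leucine and other large neutral amino acids, was 35.8, 47.4 and 44.7 FPKM in scrambled libraries and 45.1, 52.2 and 49.9 FPKM after TFEB siRNA. The groups overlapped, and scrambled replicate 1 was the lowest of all (log2 fold change 0.21, 95% interval -0.05 to 0.47, limma adjusted p = 0.192). Within each replicate number the TFEB siRNA library was the higher, and with the replicate number as a block the adjusted p was 0.0293. Slc7a6, which exchanges cationic for neutral amino acids like Slc7a7 and is found in many cell types, was 34.5, 35.4 and 32.5 FPKM against 31.7, 30.6 and 29.5 FPKM. These did not overlap (log2 fold change -0.15, 95% interval -0.28 to -0.03, limma adjusted p = 0.0673), and the blocked fit gave an adjusted p of 0.0355. Slc7a1, the widely expressed arginine and lysine importer, was 25.7, 26.9 and 26.1 FPKM against 24.9, 23.8 and 24.2 FPKM, also without overlap (log2 fold change -0.11, limma adjusted p = 0.124). The non-transporter Slc7a6os had means of 8.27 ± 0.616 and 8.96 ± 0.545 FPKM (SD, n = 3; limma adjusted p = 0.303).

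The heavy subunit Slc3a2, which carries Slc7a5, Slc7a6 and Slc7a7 to the surface, stood at 87.9 ± 4.29 and 80.7 ± 3.47 FPKM (SD, n = 3) and did not pass (log2 fold change -0.12, limma adjusted p = 0.151). The other heavy subunit, Slc3a1, was below the level for testing, with 41 reads against 21.

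Both expressed Slc36 genes fell. Slc36a4, a high-affinity carrier of proline and tryptophan, was 7.01, 6.34 and 6.32 FPKM in scrambled libraries and 5.04, 4.18 and 4.49 FPKM after TFEB siRNA. The means were 6.56 ± 0.392 and 4.57 ± 0.434 FPKM (SD, n = 3), a level 1.43-fold lower (log2 fold change -0.48, SE 0.08, limma adjusted p = 0.00524), at chr9:15709738-15743361 on the plus strand. Slc36a1, an exporter of amino acids from the lysosome known to act on mTORC1, was 7.81, 8.0 and 8.89 FPKM against 6.98, 7.15 and 6.72 FPKM, without overlap (log2 fold change -0.23, SE 0.07, limma adjusted p = 0.0350). The Slc36a1 call held without scrambled replicate 1 and was lost without each other library (adjusted p 0.0647 to 0.107). Slc43a2, a sodium-independent carrier of large neutral amino acids and the expressed gene of its family, did not pass, with means of 2.49 ± 0.249 and 2.11 ± 0.126 FPKM (SD, n = 3; log2 fold change -0.19, 95% interval -0.42 to 0.04, limma adjusted p = 0.173).

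The 20 expressed transporters together came to 404 ± 18.9 FPKM in scrambled libraries and 380.1 ± 2.36 FPKM after TFEB siRNA (SD, n = 3). The taurine transporter alone made up 38.6% ± 0.427 of that sum in scrambled libraries and 35.6% ± 0.983 after TFEB siRNA (SD, n = 3). The Slc6 family held 46.3% ± 0.0561 and 41.9% ± 0.932, and the Slc38 family 17.5% ± 0.285 and 20.9% ± 0.341 (SD, n = 3). The Slc7 family held 26.9% ± 0.491 and 28.2% ± 0.776, Slc1 5.00% ± 0.134 and 5.41% ± 0.172, and Slc36 3.66% ± 0.237 and 3.03% ± 0.112 (SD, n = 3). The ranges of the groups did not overlap for these 5 families, with Slc6 and Slc36 lower and Slc38, Slc7 and Slc1 higher in every TFEB siRNA library, and overlapped for Slc43. For Slc7 the ranges almost touched, with 27.43% as the highest scrambled share and 27.46% as the lowest after TFEB siRNA. These are shares of transcript per gene length and are given as a description, without a test, since each family's share moves when another's does.

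**Figure D3:**
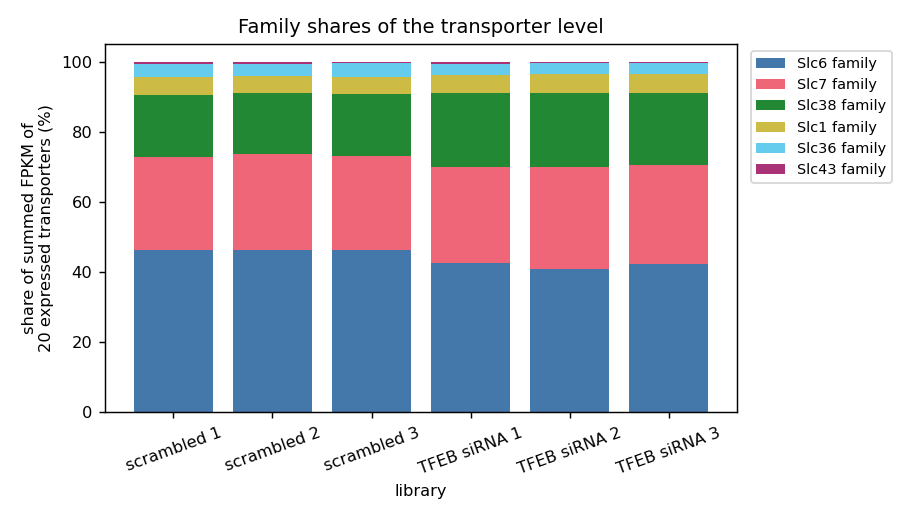
Share in percent (y) of the summed FPKM of the 20 expressed transporters held by each family, stacked, for each of the 6 libraries (x). The Slc6 share is 46.2 to 46.3% in the scrambled libraries and 40.8 to 42.5% after TFEB siRNA.

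Below 1 FPKM, 13 genes had means of 0.1 to 1 FPKM and were not part of the test. In 8 of the 13 every TFEB siRNA library was below every scrambled library, in 0 every one was above, and in 5 the groups overlapped. Among all 2682 protein-coding genes at this level, 24.8% were lower and 11.1% higher in every TFEB siRNA library. Of the 8, 5 (Slc1a2, Slc38a8, Slc6a12, Slc6a13 and Slc7a15) were under 0.1 FPKM after TFEB siRNA and reached this level only through the scrambled libraries, so they had to differ and the count of 8 supports nothing. The other 3, Slc6a20a, Slc7a8 and Slc1a1, averaged at least 0.1 FPKM in both groups. The median difference of the 13 genes on the log2(FPKM + 0.5) scale was -0.31, which includes the 5 genes that had to differ and so supports nothing. Slc6a20a, a proline carrier of the tubule brush border, was at 0.799, 0.757 and 0.855 FPKM in scrambled libraries and at 0.191, 0.0967 and 0.0253 FPKM after TFEB siRNA, on 205 reads against 24. It shares 28.5% of its 50-base stretches with other genes, mainly its neighbour Slc6a20b, to which 4 and 8 reads were counted. Slc7a8, an exchanger of neutral amino acids at the blood side of the tubule cell, was at 0.566, 0.435 and 0.602 FPKM against 0.134, 0.109 and 0.0724 FPKM, on 167 reads against 30. The 2 genes were the clearest of the low group: in a limma fit of every gene above 0, Slc6a20a had an adjusted p of 0.00620 and Slc7a8 of 0.00918.

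Slc6a12 and Slc6a13 are neighbours on chromosome 6, 5342 bases apart. The values of Slc6a12, Slc6a13, Slc38a8, Slc7a15 and Slc1a2 below are a description only. These 5 genes reached 0.1 FPKM only through the scrambled libraries, so their adjusted p supports nothing. Slc6a12, the betaine and GABA transporter, had 50 reads in scrambled libraries and 10 after TFEB siRNA (limma adjusted p = 0.0223 in the fit of every gene above 0). Slc6a13, a GABA and taurine transporter, had 52 and 15 (limma adjusted p = 0.0535 in that fit). Slc38a8 had 37 and 8 reads (limma adjusted p = 0.0496 in that fit), Slc7a15 had 36 and 10 (0.0575), and Slc1a1, the glutamate transporter of the tubule, had 263 and 125 (0.124). Slc1a1 shares 30.1% of its 50-base stretches with other genes. Slc1a2, the main glutamate transporter of brain astrocytes, was at 0.143, 0.118 and 0.117 FPKM against 0.106, 0.109 and 0.0709 FPKM, on 103 reads against 72 (0.549). The 5 genes whose groups overlapped were Slc38a3, Slc38a4, Slc43a3, Slc7a3 and Slc7a4, with 109, 84, 39, 27 and 102 reads in scrambled libraries and 48, 59, 18, 43 and 104 after TFEB siRNA.

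**Figure D4:**
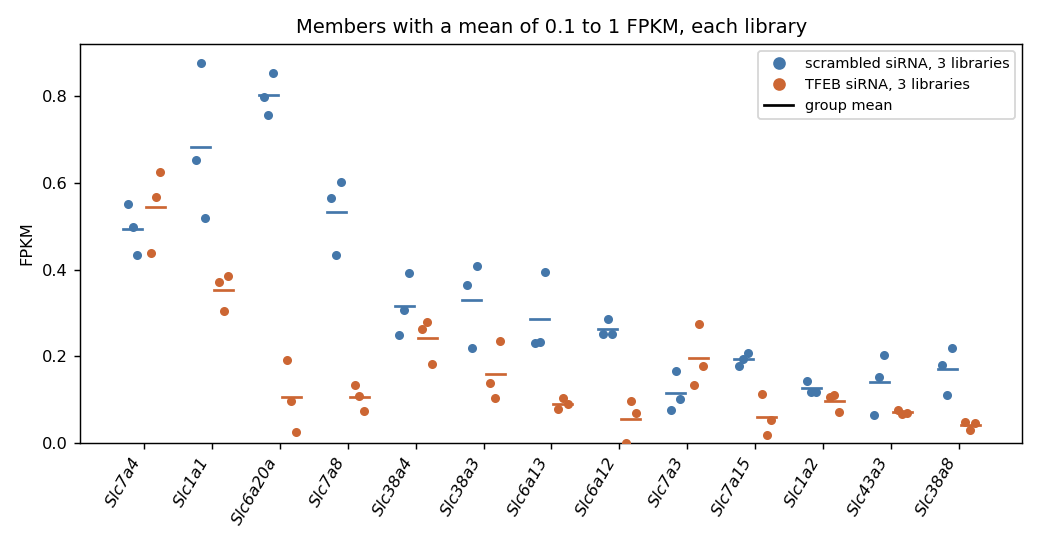
FPKM (y, from 0) of the 13 genes with a mean of 0.1 to 1 FPKM (x); points are the 3 scrambled and 3 TFEB siRNA libraries and bars are group means. Slc6a20a lies at 0.757 to 0.855 FPKM in scrambled libraries and 0.0253 to 0.191 after TFEB siRNA.

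The other 26 genes lay under 0.1 FPKM, with 0 to 115 reads over the 6 libraries together. They were 13 of Slc6, 6 of Slc7 and 2 each of Slc1, Slc36, and Slc38, and 1 of Slc43. Slc6a11, Slc6a15 and Slc38a11 had 0 reads in every library. The groups of 2 of the 26 did not overlap, both higher after TFEB siRNA: Slc6a17, a synaptic vesicle carrier of neutral amino acids, with 40 reads against 75, and Slc7a14 with 1 against 5. Among all 8765 protein-coding genes under 0.1 FPKM, 1.68% were higher and 4.1% lower in every TFEB siRNA library. The 1 FPKM level left a gap between the genes on either side of it: Slc6a19 had a mean of 1.20 FPKM over the 6 libraries, and the next genes down were Slc7a4 at 0.520 and Slc1a1 at 0.518.

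Carriers from other families were read beside these genes. Of 12 named carriers of amino acids or small peptides 11 were in the table, 4 reached 1 FPKM, and 2 rose. Slc15a4, a lysosomal carrier of histidine and small peptides, rose from 5.04 ± 0.104 to 7.83 ± 0.563 FPKM (SD, n = 3; log2 fold change 0.59, limma adjusted p = 0.00114). Ctns, which exports cystine from lysosomes, rose from 9.25 ± 0.656 to 11.5 ± 1.27 FPKM (SD, n = 3; log2 fold change 0.30, limma adjusted p = 0.0420). The Ctns call was lost without TFEB siRNA replicate 1 or 3 or scrambled replicate 2 or 3, with adjusted p of up to 0.120. Pqlc2, a lysosomal exporter of cationic amino acids, and the peptide carrier Slc15a2 did not pass (limma adjusted p = 0.281 and 0.668). Of the 2 carriers the naming rule left out, Slc38a9, a lysosomal arginine sensor, had means of 1.14 and 1.18 FPKM (limma adjusted p = 0.836), and the cystine importer Slc7a11 was below 1 FPKM at 0.580 and 0.558.

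Genes that ATF4 is known to activate when amino acids are short were lower or did not pass. All 20 genes of this list were tested: 0 were higher and 7 lower by limma, 13 did not pass, and their median log2 fold change was -0.19, beside 16.9% higher, 16.4% lower and a median of 0.02 over all tested genes. At an unadjusted p below 0.05 the counts were 0 higher and 11 lower, beside 22.8% and 21.5% of all tested genes. Limma-voom on the derived reads called 0 higher and 10 lower, beside 18.8% and 18.0%. With the replicate number as a block, 2 were higher, Cebpb and Shmt2 (limma adjusted p = 0.0178 and 0.0293), and 10 lower. The lower calls gained were those of Atf4, Atf5 and Sesn2 (limma adjusted p = 0.0206, 0.0155 and 0.0239 with the block). Ddit3, a stress transcription factor, fell from 74.7 ± 6.55 to 53.2 ± 1.17 FPKM (SD, n = 3; log2 fold change -0.48, limma adjusted p = 0.00287). Cth, which makes cysteine, fell from 7.38 ± 1.19 to 4.32 ± 0.329 FPKM (SD, n = 3; log2 fold change -0.70, limma adjusted p = 0.00476). Phgdh, the first enzyme of serine synthesis, fell from 157 ± 6.59 to 128 ± 3.22 FPKM (SD, n = 3; limma adjusted p = 0.00658). Psph, the last enzyme of that path, went from 9.66 ± 0.289 down to 7.77 ± 0.380 FPKM (SD, n = 3; limma adjusted p = 0.00863). Nupr1 and Chac1, a stress protein and a glutathione-degrading enzyme, fell with log2 fold changes of -0.39 and -0.68 (limma adjusted p = 0.0182 and 0.0327). The Nupr1 call was lost without TFEB siRNA replicate 2 (adjusted p = 0.0527), and the Chac1 call without TFEB siRNA replicate 1 or 2 or scrambled replicate 2 or 3 (adjusted p up to 0.0985). Atf4 itself stood at 169 ± 8.42 and 149 ± 4.80 FPKM (SD, n = 3; limma adjusted p = 0.0506, and 0.0206 with the block). Asns, a target often used as the readout of this response, stood at 48.6 and 48.3 FPKM (limma adjusted p = 0.891). Slc1a4 and Slc38a2, 2 of the transporters above, are also known ATF4 targets. They are examples only, since the transporters were not sorted by whether ATF4 is known to activate them. Slc1a4 rose, and Slc38a2 did not pass.

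**Figure D5:**
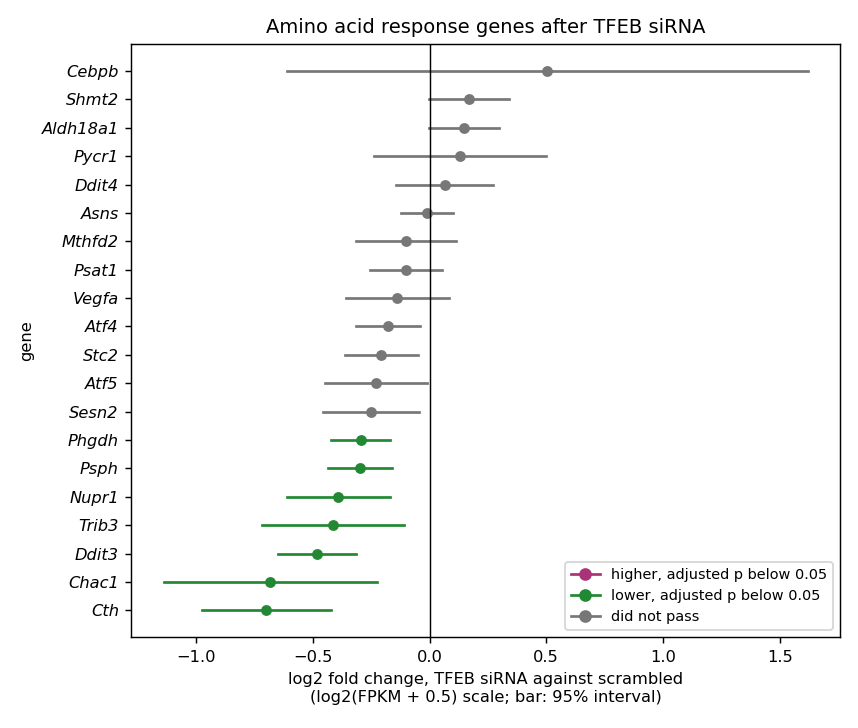
Log2 fold change (x, on log2(FPKM + 0.5), TFEB siRNA against scrambled) of the 20 genes of the ATF4 list (y), with 95% intervals as bars. The 7 that passed lie between -0.70 and -0.29, and Cebpb has the widest interval.

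Short siRNAs can also lower transcripts whose 3′ UTR matches their first bases, and the sequence of neither siRNA is given in the sources used here. A set of 4 heptamers frequent in 3′ UTRs of genes that fell had been chosen by rank on these same fold changes and so supports nothing by itself. The first pair, CTACATA with TACATAA, overlap each other, as do the second pair, in which GGCCATG is followed by the letters GCCATGA. Of 3510 tested genes with any of them in the longest 3′ UTR, 25.7% were lower, against 13.9% of 6964 without. Among the 21 expressed genes, 3 of the 8 that fell held one, as did 1 of the 5 that rose and 6 of the 8 that did not pass. Those 3 were Slc36a1, Slc6a19 and Slc6a6, whose sites are shown with the heptamer in capitals, read along the transcript as DNA letters.
Slc36a1: gaaagcgGGCCATGtggctca
Slc6a19: tgttatgTACATAAtggagat
Slc6a6: ggtccgGGCCATGtgacagg
The lower genes with none of the 4 heptamers were Slc1a6, Slc7a7, Slc6a18, Slc6a8 and Slc36a4. Their longest 3′ UTRs had 150, 344, 2396, 2671 and 4983 bases, and a short one has fewer places for a match.

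A second set of 4, frequent in 3′ UTRs of genes that rose, had been chosen in the same way. In it TCGGAGA overlaps the heptamer CGGAGAA, and in the other pair TGTCACG overlaps the heptamer GTCACGA. Of 980 tested genes with any of these, 31.7% were higher, against 16.5% of 9494 without. Among the 21 expressed genes, 1 of the 5 that rose (Slc1a4) held one, as did 2 of the 8 that fell (Slc36a4 and Slc6a18) and 1 of the 8 that did not pass (Slc38a6). The part of either set's matches in the changes was not tested.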

How the data were processed

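RNA sequencing of 6 libraries was analysed, 3 per group, with groups taken from the sample titles. Total RNA was extracted with TRIzol, per the labels' protocols, and the submitters' processing notes name mm10. How reads were aligned and counted, and whether by strand, is not given in the sources used here. FPKM is the unit in which the authors deposited their values, beside gene positions and lengths. Multiplied by length, these were whole steps per library (tolerance 1e-06), which gave reads per gene. The deposited values already carried a median-ratio scaling between libraries. The 12257 of 53715 genes that averaged at least 1 FPKM were tested in R 4.3.3 with limma 3.58.1, using log2(FPKM + 0.5), eBayes with a trend and two-sided p-values, adjusted by Benjamini-Hochberg and called below 0.05. The script was tested on simulated data. Read numbers cover counting error alone. The labels do not say whether replicates were separate cultures, and p-values may therefore reflect technical spread only. Libraries differed by more than counting noise, with a chi-square per gene of 4.70 to 8.93 inside groups and 31.8 to 40.9 across them.

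The titles number the replicates without saying what a number stands for. Same-numbered libraries deviated together, with correlations across genes of 0.382, 0.129 and 0.166 for replicates 1, 2 and 3. However, TFEB siRNA replicate 2 with scrambled replicate 3 also gave 0.106. On the data alone, the numbers were treated as pairs, and only in the blocked fit. Tests reported without mention of the block did not pair the libraries. The blocked value is given where it changes the call of a transporter or of a gene of the ATF4 list. Every gene of the rule at 0.1 FPKM or more is named. Of each pathway list the counts and at most 6 called genes by smallest p are named. Atf4, Atf5, Sesn2, Asns, Cebpb, Shmt2, Pqlc2, Slc15a2 and overlapping genes were added after their values were seen. The transporters, the lists and the heptamers were chosen with earlier results of these data known. Some genes of the rule and of the marker lists are not reported here by name. Positions are those of the deposited table. All 21 expressed genes have the same start and end in GENCODE M21, from which overlaps, 3′ UTRs and shared 50-base stretches were taken. The alternatives were other pseudocounts, filters, scalings and error models, the replicate block, and leaving out each library.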

Additional observations from a re-analysis of the deposited data

How the results depend on the processing

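Over the 15 alternatives, 6 of the 13 calls held in all: Slc1a4 and Slc38a10 higher, and Slc1a6, Slc6a18, Slc7a7 and Slc36a4 lower. The other 7 were lost in at least 1. With no filter on low values, 2 transporters were higher and 5 lower, and on TPM 2 were higher, against 5 and 8. Leaving out 1 library at a time gave 2 to 3 higher and 4 to 8 lower, with fewer samples in each fit. With the replicate block, 6 were higher and 8 lower: the call of Slc6a8 was lost, those of Slc7a5 and Slc7a6 were gained, and no other transporter's call changed. Of the ATF4 list, the block called 2 higher against 0, TPM called 11 lower against 7, and leaving out libraries 4 to 9 lower. The sign of genes near 0 turned when libraries were left out. Slc38a6 was at 0.0019, 0.0084 and 0.0038 (log2) without TFEB siRNA replicate 1, TFEB siRNA replicate 2 and scrambled replicate 2, and ranged from -0.12 to 0.0084. Asns ranged from -0.024 to 0.015, above 0 without TFEB siRNA replicate 2 or scrambled replicate 2. Cebpb ranged from -0.014 without scrambled replicate 1 to 0.86, and Slc15a2 from -0.13 to 0.026 without scrambled replicate 1. Without TFEB siRNA replicate 1, Ddit4 was at -0.019 and Slc38a9 at -0.0052, and they ranged up to 0.15 and 0.10. The cause of these shifts was not tested. Genes below 1 FPKM are limited by depth, with 10 to 30 reads per group in several.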
